A study of Mus musculus with 12 samples.

Results

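The 91117 H3K4me1 regions of the female pair of pancreatic cancer cell lines are described here, 56076 listed in the line labelled KDM6A-WT and 35041 in the line labelled KDM6A-KO, out of 313566 regions in the 11 lists of the series. All regions of both lists were taken, with no choice by value. The study profiled cell lines from mouse pancreatic tumours by chromatin immunoprecipitation with sequencing, to look at the role of Kdm6a in this cancer. Both lines were untreated and grown in F12/DMEM with EGF. The labels of every line, those with the genotype KDM6A-WT included, state that it was derived from a tumour null for K6A, so WT and KO below stand for the libraries as the genotype field labels them. Strain, passage, age and the number of animals or clones behind a line are not given in the sources used here. The KDM6A lists give no check of the genotype, since KDM6A ChIP listed 5961 regions in the KO line and 2847 in the WT line. A second pair, labelled male, also has an H3K4me1 list for each genotype. Each group held 1 library, so no difference between lines has a replicate check and no test was made. Intervals in brackets are exact 95% Clopper-Pearson intervals over regions, which cover counting error alone, and regions are not replicates.

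H3K4me1 is laid down mainly by the methyltransferases MLL3 and MLL4 and marks enhancers, both primed and active, as well as the flanks of active promoters. KDM6A, an X-linked gene, codes for a demethylase of H3K27me3 that is also a subunit of the MLL3 and MLL4 complexes. H3K27ac on top of H3K4me1 is commonly read as a sign of an active enhancer. In the deposited lists a region is an island, a run of 200 bp windows with many reads that is joined across short gaps, so that an island can be absent, shrink, grow, split or fuse between 2 libraries.

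The WT list covered 228.7 Mb with 9956349 reads in regions and the KO list 153.5 Mb with 6639207 reads. Median length was 2800 bp in WT and 3200 bp in KO, and the longest island was 155 kb in WT and 90.6 kb in KO. Reads per 200 bp, the count of a region over its length, had a median of 7.10 in WT, with 5th and 95th percentiles of 4.86 and 11.6. In KO the median was 7.09, with percentiles of 4.71 and 12. The 2 lists thus differed by far in number and covered length while the median densities, each set by its own library's depth and threshold, were close. The number of mapped reads per library is not given in the sources used here, and a library with fewer reads lists fewer islands, so depth and genotype cannot be told apart in the number of regions.

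Presence of the same region in both lines was the first comparison. Of the 56076 WT regions, 27418 or 48.9% (48.5 to 49.3%) overlapped a KO region by at least 1 bp, and the other 51.1% had no KO region. Of the 35041 KO regions, 26828 or 76.6% (76.1 to 77.0%) overlapped a WT region, and 23.4% stood alone. With the WT list reduced to its 35041 regions with the most reads, 57.0% of WT regions and 60.7% of KO regions were shared. Lists of equal number give close shares by construction when most links are one-to-one, so the smaller gap is not a result about the lines. In the male pair the WT list had 64247 regions and the KO list 49780.

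Long regions were shared more often than short ones. Among WT regions under 1 kb, 36.0% (33.3 to 38.7%) were overlapped in KO, against 46.2% of those from 2 to 5 kb, 78.4% of those from 10 to 20 kb and 91.4% (89.2 to 93.3%) of the 767 islands of 20 kb or longer. KO regions went from 53.1% (48.5 to 57.6%) under 1 kb to 99.4% (98.0 to 99.9%) at 20 kb or longer. A long region meets an overlap of 1 bp more easily than a short one, but the share of base pairs also went up with length. It was 34.2% of WT base pairs under 1 kb and 55.2% at 20 kb or longer, and 49.3% and 83.8% of KO base pairs.

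**Figure D1:**
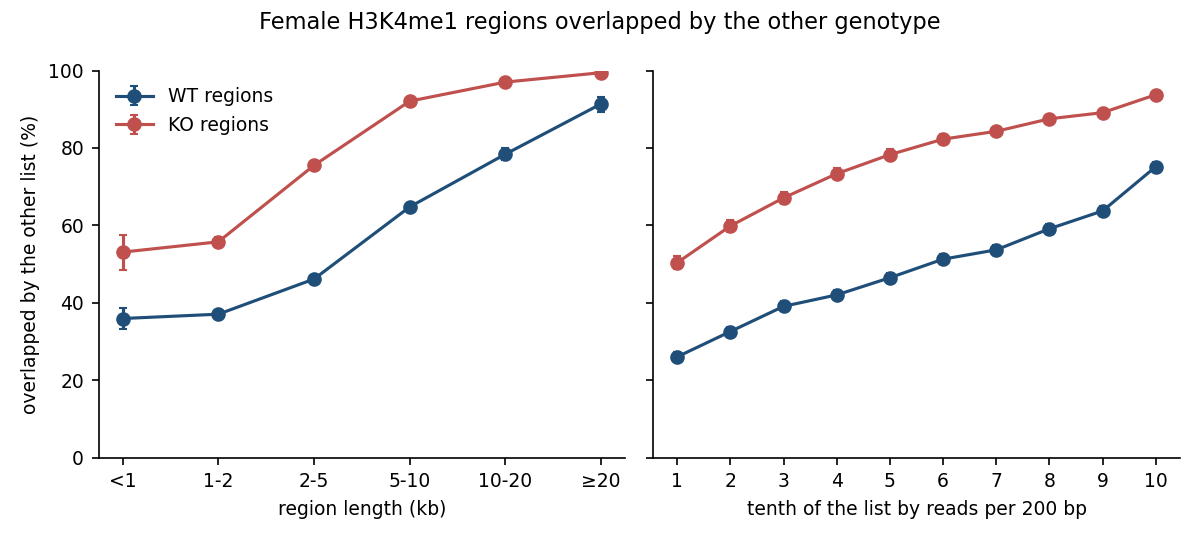
Share of female H3K4me1 regions overlapped by the list of the other genotype, by region length (left) and by reads per 200 bp in 10 classes of about equal size (right). Bars are exact 95% intervals over regions; both lists go up with length and with density, and KO regions lie above WT regions in every class.

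Density of reads inside a region separated shared regions from the rest in the same direction. WT regions were sorted by reads per 200 bp into 10 classes of about equal size. In the class with the lowest density 26.1% (24.9 to 27.2%) were overlapped in KO, and in the class with the highest 75.2% (74.0 to 76.3%). For KO regions these shares were 50.4% (48.7 to 52.0%) and 93.8% (92.9 to 94.5%). Median density was 7.70 reads per 200 bp in shared and 6.58 in lone WT regions. In KO it was 7.44 and 6.0. Part of that gap belonged to length, since long regions are also dense. Within 6 classes of length the median of shared regions was still higher, by 0.64 to 1.02 in WT and by 0.03 to 1.0 in KO, with the smallest KO gap among the 61 lone regions from 10 to 20 kb. Lone regions were also poor in reads as a whole. The tenth of the WT list with the fewest reads held 14.2% of the lone and 5.89% of the shared regions, and that of the KO list 24.3% and 6.34%.

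Counted in base pairs, 102.7 Mb were listed in both lines, which is 44.9% of the WT and 66.9% of the KO list. The WT list held 126.0 Mb that KO lacked. Of these, 88.7 Mb (70.4%) were whole regions without a KO partner, 31.5 Mb (25%) were edges of regions that KO listed shorter, and 5.79 Mb (4.60%) were gaps inside regions that KO listed in pieces. The KO list held 50.8 Mb that WT lacked, of which 21.7 Mb (42.7%) were whole regions, 24.8 Mb (48.8%) edges and 4.31 Mb (8.47%) filled gaps. The smaller extent of the KO list was therefore mostly a matter of missing regions. Shared regions covered 139.95 Mb in WT and 131.83 Mb in KO, a difference of -8.12 Mb, while the whole lists differed by -75.1 Mb. In the male pair both lists held 137.4 Mb, whole regions made up 64.5% of the 121.7 Mb found in WT alone, and shared regions differed by -14.2 Mb out of -62.5 Mb.

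**Figure D2:**
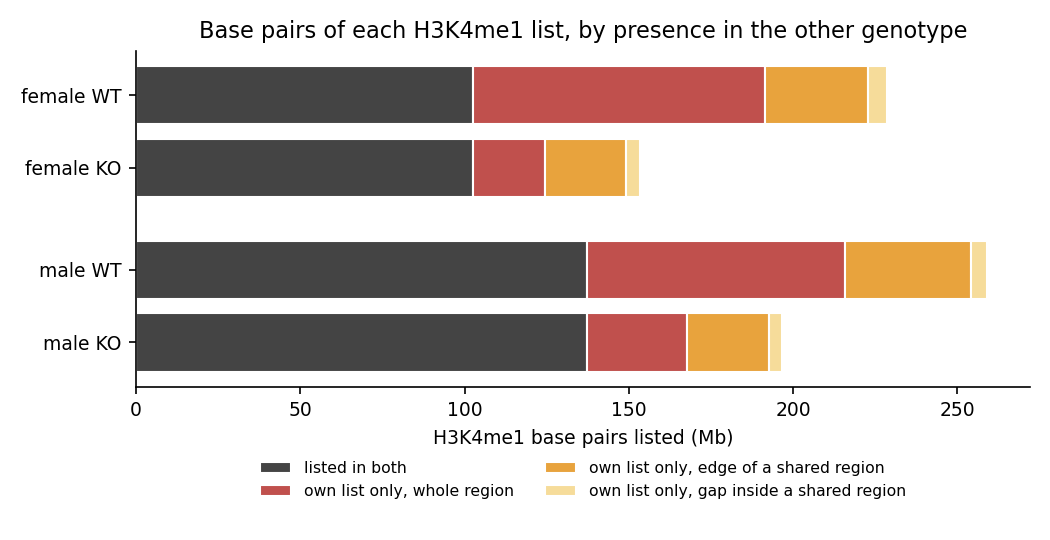
Base pairs of each H3K4me1 list in Mb, divided by whether the list of the other genotype of the same sex holds them. Base pairs in both lists come first; in the female WT bar the whole regions missing from KO, 88.7 Mb, are larger than the edges, 31.5 Mb, and the inner gaps, 5.79 Mb.

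Lone WT regions often lay far from any KO region and in company. Their median distance to the nearest KO region was 19.6 kb, and 4.67% lay within 1 kb of one. Lone KO regions had a median distance of 8.6 kb to the nearest WT region, and 12.2% lay within 1 kb. Following the WT list along each chromosome, 453 runs of at least 10 consecutive lone regions held 7053 regions, 24.6% of all lone WT regions. The KO list had 28 such runs with 387 regions, 4.71% of its lone regions. A list with more regions tends to lie nearer to any point. A larger lone share, 51.1% in WT against 23.4% in KO, also makes long runs more common. Neither contrast was recomputed with lists of equal number. Runs in the male WT list numbered 239 and held 13.6% of its lone regions. The longest WT run, named here after its values were seen, lay on chromosome 4 from 99607401 to 100867000 (mm9) and counted 75 regions with 326 kb and 12881 reads. Across that stretch the male WT list had 37 regions with 122.2 kb and the male KO list 3 regions with 5.2 kb.

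The WT regions without KO overlap that were densest in reads, among those of 2 kb or longer, lay on chromosomes 15, 15, 19, 1 and X (positions in mm9). On chromosome 15 the region from 58576801 to 58580400 held 348 reads, or 19.3 per 200 bp, and was listed for H3K27me3, the mark of Polycomb repression, over 44.4% of its length. The region from 81660801 to 81673400 on the same chromosome held 1149 reads and was listed for H3K27ac over 50.8% of its length. On chromosome 19 the region from 53723001 to 53727200 held 371 reads and none of the other marks listed in the female WT line. On chromosome 1 a broad region from 74033601 to 74118400 held 7489 reads over 84.8 kb, and H3K27me3 covered 99.1% and H3K27ac 65.8% of it. Of these 4 regions, all were listed in the male WT line and the 3 on chromosomes 15 and 19 in the male KO line too. Over all 28658 lone WT regions the shares were lower, 64.5% in the male WT and 32.3% in the male KO line. The region on chromosome X from 166409801 to 166422200, with 1093 reads, stood apart. It was missing from the male WT and present over its full length in the male KO list, and the MLL4 list of the female KO line covered all of it although that line's H3K4me1 list had no region there.

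KO regions without WT overlap reached similar densities. The densest, on chromosome 15 from 10708601 to 10711200, held 275 reads or 21.2 per 200 bp, and H3K27ac of the WT line covered 92.3% of it. A region on chromosome 6 from 91348801 to 91360400 held 1018 reads, and one on chromosome 14 from 21679201 to 21688600 held 823. On chromosome 12 the region from 82787401 to 82794000 had 575 reads and lay wholly inside H3K27ac of WT. The region on chromosome 9 from 56527401 to 56537200 had 850 reads, was covered by H3K27me3 of WT over 87.8% of its length and had no H3K27ac. Thus 4 of the 5 overlapped H3K27ac in the WT line, whose H3K4me1 list had no region there. For H3K4me1, 4 of the 5 were listed in the male WT line and 5 of the 5 in the male KO line. Over all 8213 lone KO regions the shares were lower, 35.6% with H3K27ac, 49.4% listed in the male WT line and 61.5% in the male KO line.

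Regions of the 2 lists that met formed 4 kinds of link. There were 17995 one-to-one pairs, 1882 WT regions split into 2 or more KO regions, 2468 KO regions into which 2 or more WT regions had merged, and 925 groups with 2 or more regions on each side. Split WT regions were long and dense, with a median of 9400 bp, 436 reads and 9.08 reads per 200 bp, against 3200 bp, 119 reads and 7.58 for WT regions in pairs. Merged KO regions mirrored them, with a median of 7800 bp, 331 reads and 8.35 per 200 bp, against 3400 bp, 123 reads and 7.33 for KO regions in pairs. The pieces on the other side were of ordinary size, 3200 bp for KO pieces of a split and 2800 bp for WT regions that merged.

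Most splits and merges were small events. Of the splits 1601 (85.1%) had 2 pieces, and of the merges 2150 (87.1%). The pieces together held a median of 85.0% of the split WT region and 83.3% of the merged KO region. The 2300 gaps inside split regions had a median of 600 bp, and so had the 2878 gaps inside merged regions, although single gaps reached 61.6 kb and 18.8 kb. The widest gap was 1 kb or less in 68.5% of splits and 72.4% of merges. The smallest gap anywhere in either list was 400 bp, so many of these gaps were close to the limit at which neighbours stay apart.

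That merges outnumbered splits depended on which WT regions were kept. With the WT list reduced to the number of KO regions, by most reads, 2012 splits faced 1148 merges. With regions above their list's median of reads, 690 splits faced 949 merges. The male pair had 2266 splits and 2441 merges.

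The split WT region with the most KO pieces lay on chromosome 2 from 90317601 to 90426000 (mm9), where 108.4 kb with 6744 reads in WT faced 8 KO regions with 64.4 kb and 2666 reads. The longest island of the WT list, on chromosome 2 from 52719201 to 52874200, had 9856 reads over 155 kb. It was listed as 7 KO regions that still held 89.5% of it, the longest of them 56.8 kb. In contrast the 72.8 kb region on chromosome 5 from 136969601 to 137042400 was left with 7 KO regions over 38.5% of its length. On the other side, chromosome 5 from 145656401 to 145735000 was a single KO island of 78.6 kb with 5741 reads, where WT had 6 regions with 65.8 kb and 3396 reads. On chromosome 11 from 99349601 to 99388600 a KO island of 39.0 kb spanned 6 WT regions with 29 kb, and on chromosome 1 from 69473801 to 69510600 one of 36.8 kb spanned 6 WT regions with 20 kb. The 5 leading splits all overlapped MLL4 regions of both lines, and the 5 leading merges overlapped MLL4 regions of the KO line in 5 cases and of the WT line in 0. These 5 are few and very long, and the MLL4 list of KO holds far more regions than that of WT. Over all 1882 splits MLL4 was listed at 31.3% in KO and 11.2% in WT, and over all 2468 merges at 35.7% and 5.06%.

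Length was compared within the 17995 one-to-one pairs. The KO region was shorter by at least 1 step of 200 bp in 7716 pairs, 42.9% (42.2 to 43.6%), longer in 9369, 52.1% (51.3 to 52.8%), and of the same length in 910. Since each share is the background itself, it is a description of the lists and carries no test. Reducing the WT list to the number of KO regions, by most reads, gave 49.9% shorter and 45.7% longer, so the majority of longer pairs turned. Number and choice of WT regions changed together there, and their parts were not tested. Male pairs were shorter in 50.1% and longer in 43.8%. The median change was 200 bp, with quartiles of -1000 and 1200 bp, whereas the mean change was -202 bp because the losses were larger. The shorter pairs lost 19.5 Mb together and the longer pairs gained 15.8 Mb.

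The KO region lay inside the WT region in 29.0% of pairs, around it in 38.8% and was displaced to one side in 31.0%. At least 1 border lay within 1 step of 200 bp of its partner in 50.6% of pairs and both borders in 9.34%. Pairs shorter in KO had a median of 4800 bp in WT and 2800 bp in KO, with 8.08 and 7.18 reads per 200 bp. Pairs longer in KO had 2400 and 4000 bp, with 7.30 and 7.44 reads per 200 bp. In 2017 pairs (11.2%) the KO region had less than 0.5 times the WT length, and in 2187 (12.2%) more than 2 times.

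The size of the change depended on how pairs were sorted. Sorted by WT length, 10.8% of pairs under 2 kb and 85.0% of pairs of 20 kb or longer were shorter in KO. Sorted by KO length the order turned, with 70.3% shorter under 2 kb and 40.3% at 20 kb or longer. Sorting by the length in one list puts pairs that are long in that list at the top by construction. The geometric mean, which takes both lengths alike, was therefore also used. By that measure 35.1% (33.4 to 36.8%) were shorter under 2 kb, 40.3% from 2 to 5 kb, 53.9% from 5 to 10 kb, 61.2% (57.3 to 65.1%) from 10 to 20 kb and 60.6% (47.8 to 72.4%) of the 66 pairs of 20 kb or longer. Sorted in this way, short islands were more often longer in KO and long islands more often shorter. A difference in the spread of lengths between the lists also enters this order. The order was not recomputed with the WT list reduced to the number of KO regions. In the male pair the shares were 43.1%, 50.4%, 55.3%, 52.9% and 54.5%.

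**Figure D3:**
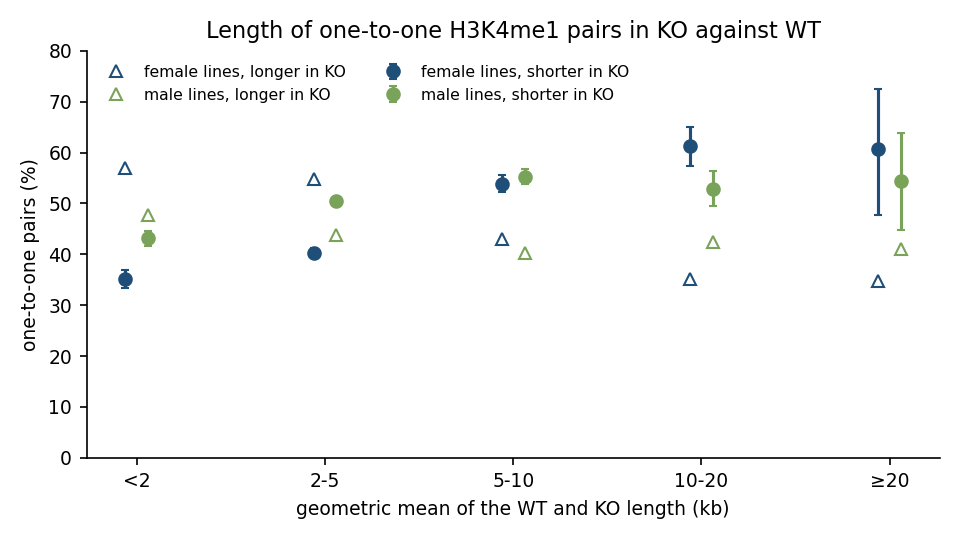
Share of one-to-one H3K4me1 pairs that were shorter (circles, with exact 95% intervals over pairs) or longer (triangles) in KO than in WT, by the geometric mean of both lengths, for the female and the male lines. In the female lines the share shorter in KO goes from 35.1% under 2 kb to 61.2% from 10 to 20 kb.

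The largest losses among pairs were islands reduced to one fragment. On chromosome 15 from 53023201 to 53119800 (mm9) WT had 96.6 kb with 5642 reads and KO 10.6 kb with 441 reads, from 53031201 to 53041800. On chromosome 7 from 75149201 to 75233600 WT had 84.4 kb with 4747 reads and KO 9.2 kb with 468 reads. The remaining 3 lay on chromosomes 10, 19 and 15 and lost 46.2 to 50.2 kb each. All 5 overlapped H3K27ac in WT, which covered from 6.21% to 64.4% of their length, and all 5 were listed in both male lines. The largest gains were shorter. On chromosome 17 from 36991601 to 37025800 KO had 34.2 kb with 2068 reads where WT had 5.2 kb with 221 reads, and H3K27ac of WT covered 88.9% of the KO island. On chromosome 9 from 44833001 to 44858800 KO had 25.8 kb with 1255 reads and WT 2.2 kb with 53 reads. The other 3 gains, on chromosomes 1, 16 and 1, were of 17.6 to 20 kb. Of the 5 gains, 4 overlapped H3K27ac of WT. Over all 17995 one-to-one pairs, 78.2% of the WT and 78.2% of the KO regions overlapped it, so these counts lie near the background. Of the WT regions in pairs, 91.1% were listed in the male WT line and 90.6% in the male KO line.

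WT islands of 20 kb or longer, the domain-sized part of the list, numbered 767 with 23.8 Mb, and KO islands 354 with 9.84 Mb. Of the WT islands 335 were split in KO, 167 had 1 partner, 161 were in many-to-many groups, 38 were part of a merge and 66 were absent. The median WT island kept 59.0% of its length in KO (quartiles 27.2 and 86.3%). KO kept at least 75% of 283 islands, 50 to 75% of 165, 25 to 50% of 141 and less than 25%, but some, of 112. The 354 KO islands lay to a median of 90.7% inside WT regions and 2 of them stood alone. Domain-sized islands of KO were thus nearly always listed in WT, while those of WT ranged from complete to absent in KO. The WT list was the larger, and choosing islands by length in one list favours that list. Neither was evened out here. At 20 kb or longer the other list held 55.2% of WT and 83.8% of KO base pairs in the female pair. In the male pair these shares were 73.1% and 85.0%.

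Marks of the WT line differed over these 5 classes of long islands, which had medians of 24.4 to 28.3 kb. H3K27ac covered 21.8% of the base pairs of absent islands, then 33.2%, 41.4%, 52.6% and 72.7% with more kept. H3K27me3 went the other way, from 17.4% of the base pairs of absent islands over 4.74%, 1.24% and 0.575% to 0.450%. MLL4 of the KO line was listed at 3.03% of absent islands (0.369 to 10.5%), 30.4%, 39.0%, 57.0% and 72.1% (66.5 to 77.2%). MLL4 of the WT line had no such order by island, with 22.7%, 26.8%, 23.4%, 24.2% and 32.5%. By base pairs MLL4 of WT covered 1.22%, 1.78%, 2.17%, 2.13% and 2.96%, and MLL4 of KO 0.368%, 1.98%, 3.81%, 5.85% and 10.6%. KDM6A of the WT line was at 12.1% (5.38 to 22.5%) of absent islands and at 25.9%, 34.8%, 29.1% and 29.7% of the others. KDM6A of the KO line had the same order as MLL4 of that line, with 6.06% (1.68 to 14.8%), 17%, 22.7%, 30.9% and 35.3% (29.8 to 41.2%). The male KO list held 21.3% of the base pairs of the islands absent from female KO, and 84.9% of those that kept at least 75%. Of the 66 absent islands, 18 had no male KO overlap.

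Over all base pairs, those listed in both lines were acetylated most often. H3K27ac of the WT line covered 65.6% of them, against 33.3% of inner gaps, 23% of edges and 12.4% of whole regions missing from KO. Base pairs of the KO list that WT lacked had 49.1%, 26.5% and 24.8% in the same order. H3K4me3, the promoter mark, covered 45.7% of the base pairs in both lists, 5.26% of the whole regions missing from KO and 17.8% of those new in KO. H3K27me3 covered 3.37%, 9.50% and 13.5% of these. No list of these 3 marks was used for the KO line, so the values describe where H3K4me1 differed and not whether acetylation or H3K27me3 changed with it.

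The same order held inside single regions. In 10785 one-to-one WT regions with a lost edge, H3K27ac covered 63.5% of the kept and 23.7% of the lost base pairs. The kept part had the higher share in 6031 of these regions and the lower in 1169, with equal shares in 3585. In 12556 KO regions with a new edge the shares were 64.5% of the shared and 27% of the new base pairs, higher in the shared part in 7581 and lower in 1371. Splits and merges were less one-sided. Kept parts of split WT regions had 66.3% against 34.7% in the gaps, yet single regions were divided, 883 higher in the kept part and 669 higher in the gap. Wider gaps had less cover, while the kept parts were not divided by gap width. H3K27ac covered 57.4% of gaps of 1 kb or less, 30.7% of gaps from 1 to 5 kb and 27.6% of wider ones. The smallest gap within the H3K27ac list was 600 bp, against 400 bp in the H3K4me1 lists. What this adds to the cover of short gaps was not tested. Gaps filled in KO merges had 51.6% against 68.8% in the shared parts, with 1010 regions higher in the shared part and 1046 higher in the gap.

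**Figure D4:**
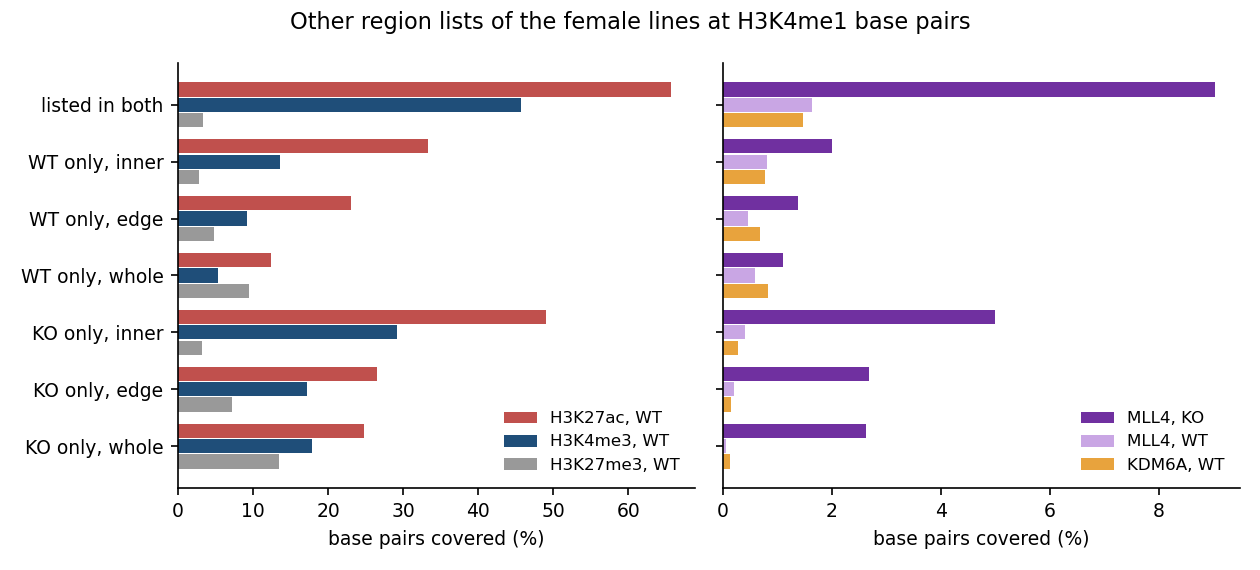
Percent of H3K4me1 base pairs covered by other region lists of the female lines, for base pairs in both lists and for inner gaps, edges and whole regions of one list alone. Base pairs in both lists have the highest cover by H3K27ac (65.6%), H3K4me3 (45.7%) and MLL4 of KO (9.03%); the panels have different scales.

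MLL4, one of the enzymes that write H3K4me1, was listed with 13152 regions in KO and 2130 in WT. MLL4 regions of KO covered 9.03% of the base pairs in both lists, 1.1% of the whole regions missing from KO and 2.63% of those new in KO. MLL4 regions of WT covered 1.64%, 0.587% and 0.0682% of these. KDM6A regions of WT covered 1.47%, 0.823% and 0.125%, and KDM6A regions of KO 2.97%, 0.64% and 1.05%. Each of the 2 lists from the WT line thus covered whole regions found in WT alone more than those found in KO alone, and each of the 2 from the KO line the reverse. By region, MLL4 of KO was at 2.80% of lone WT regions, 19.2% of WT regions in pairs and 31.3% of split ones. Lists of 1 line are not independent of each other, and what that adds to these shares was not tested.

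Among one-to-one pairs of like WT length, MLL4 of the KO line was more often listed where the KO region was longer. For WT regions of 2 to 5 kb, counting overlap over the WT region alone, it was at 53 of 543 pairs, 9.76% (7.40 to 12.6%), when KO had less than 0.5 times the WT length. It was at 11.5%, 16.3% and 19.6% in the classes between and at 213 of 896 pairs, 23.8% (21.0 to 26.7%), when KO had 2 times the length or more. For WT regions of 5 to 10 kb the order was 15.2%, 22.9%, 33.8%, 45.2% and 46.2% (26.6 to 66.6%), the last from 26 pairs. Without classes of WT length the shares were 15.1% at the short end and 17.7% at the long end, where median WT lengths were 7000 and 1600 bp.

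H3K27ac and H3K4me3 of WT moved with the same ratio. H3K27ac was at 56.2% of the pairs of 2 to 5 kb with the shortest KO regions and at 85.9% of those with the longest. H3K4me3 was at 45.1% and 71.3% of these. The shares of MLL4 that follow are divided by H3K27ac and not by H3K4me3. In pairs with H3K27ac, MLL4 of KO went from 11.1% (7.84 to 15.2%) to 26.2% (23.2 to 29.5%). In pairs without it the 5 shares were 7.98%, 8.91%, 9.20%, 13.8% and 8.73% (4.44 to 15.1%), which showed no steady order. From 5 to 10 kb, pairs without H3K27ac had 9.73%, 15.4% and 20.2% in the 3 classes with the shortest KO regions, and the 2 classes beyond held 17 pairs and 1 pair. MLL4 of the WT line was at 1.66% and 1.0% of pairs at the 2 ends and KDM6A of the WT line at 2.21% and 0.67%.

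Chromosomes differed in how much of the mark the KO list held. KO over WT base pairs ranged from 0.432 on chromosome 15 to 1.01 on chromosome 5, with a median of 0.654, and was below 1 on 19 of 20 chromosomes. On chromosome 15, WT had 2271 regions with 13.3 Mb and KO 1130 with 5.75 Mb. Among its 613 one-to-one pairs 63.1% were shorter in KO. On chromosome 5, WT had 3393 regions with 13.0 Mb and KO 2747 with 13.1 Mb, and 27.8% of 1193 pairs were shorter in KO. The 2 chromosomes thus lay at opposite ends of the range by covered length and by change within pairs. Median reads per 200 bp were highest on chromosomes 15 and 19 in all 4 H3K4me1 lists. They were 8.25 and 8.32 in female WT and 7.68 and 8.0 in female KO. In the male lines they were 10.1 and 10.4 in WT and 10 and 10 in KO. The part of these densities in the ratios was not tested. In the male pair the ratio was 0.852 on chromosome 15, 0.925 on chromosome 5 and lowest, at 0.572, on chromosome 1.

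**Figure D5:**
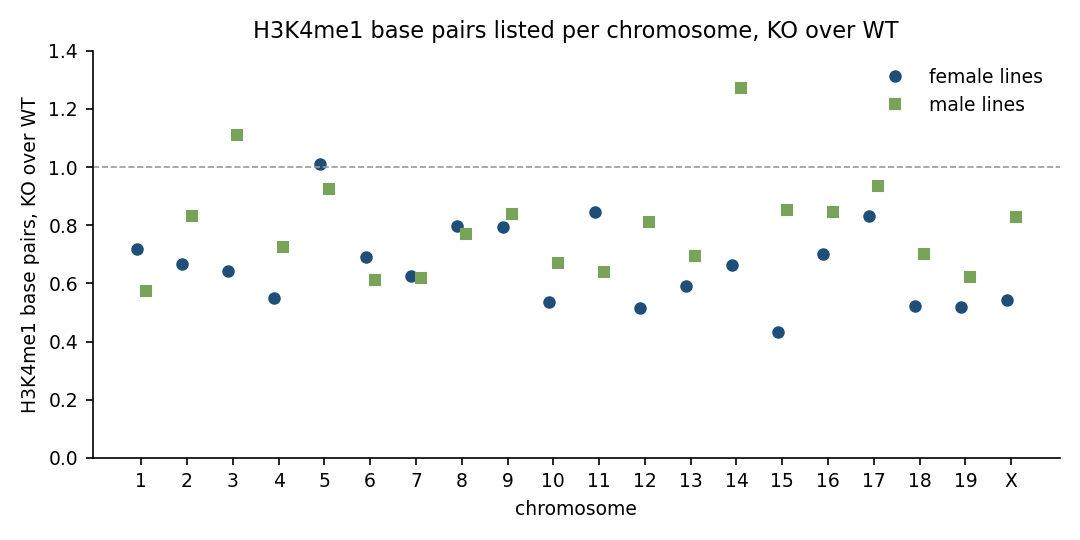
H3K4me1 base pairs listed in KO divided by those in WT for each chromosome, female lines as circles and male lines as squares, with a dashed line at equal extent. In the female lines chromosome 15 is lowest at 0.432 and chromosome 5 is above the line at 1.01.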

How the data were processed

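The deposited lists give chromosome, start, end and a whole-number count per region, taken as reads in the region because no header or label names it. Build mm9, Bowtie 1.1.2 and SICER 1 are named, without their roles, per the submitters' processing notes. Control, threshold and mapped reads are not given in the sources used here. Counts were used as deposited, divided by length to give reads per 200 bp, and ranked within a list. Where WT and KO values stand side by side they are not scaled for depth, which is unknown, and no change in level is read from them. Groups came from antibody, sex and genotype labels. Each library has its own list, and absence from it can mean signal below a threshold. Positions count from 1.

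Overlap meant at least 1 bp. Lone, one-to-one, split, merged and many-to-many regions were taken from the overlap graph. The pair of lists, the classes and the gene lists (not used in the end) were chosen with earlier results of these data known. Named regions were the 5 per class with the most reads per 200 bp (lone, 2 kb or longer), the largest change of length, or the most pieces. Gene and marker lists were left out since the reference table is of GRCm38 and regions pass its last gene on 10 of 20 chromosomes.

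The alternatives were 50% cover, the upper part by reads, equal numbers, joining within 1 kb, autosomes, 5 chromosomes left out, regions of 2 kb or longer and changes of at least 25%. Leaving out chromosomes 5 and 15, and the alternatives for longer pairs, H3K27ac and MLL4, were chosen after seeing the data. Python 3.11.15, numpy 2.4.6, pandas 2.3.3, scipy 1.17.1, matplotlib 3.10.9 and bedtools 2.31.1 (overlap counts) were used, and steps were tested on simulated data.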

Additional observations from a re-analysis of the deposited data

Results flagged for a closer look

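The female and the male pair moved in opposite directions in 4 measures, and none of these differences was tested, since each line had 1 library. KO over WT base pairs of H3K4me1 were 0.644 in the female and 1.11 in the male lines on chromosome 3, 1.01 and 0.925 on chromosome 5, and 0.665 and 1.27 on chromosome 14. The median log2 ratio of KO over WT length in one-to-one pairs was 0.09 in the female and -0.03 in the male lines. With the female WT list reduced to the number of KO regions, by most reads, the female median was 0. With regions above their list's median of reads it was 0.06. The male lists were not reduced, and what the opposite direction rests on was not tested.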

How the results depend on the processing

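No paired analysis was possible because each group held 1 library. Of 84 values recomputed under the alternatives, 47 stayed near the reported value and 37 did not. Near meant inside its interval or, for counts of splits and merges, within 1.5 times of it. For shares of base pairs and for the H3K27ac difference, the interval treated the value as a share of the 56076 WT regions. Base pairs are not independent, so for those values it is a yardstick and no measure of error. With at least 50% of a region covered, shared were 42.6% of WT and 66.7% of KO regions, shared regions held 13.2% of the missing WT base pairs against 29.6% as reported, and reads per 200 bp of shared minus lone regions differed by 0.967 in WT and 1.22 in KO (1.12 and 1.44 as reported). With regions above their list's median of reads, 46.6% of WT and 73.1% of KO regions and 41.7% of WT base pairs were shared, 44.5% of pairs were shorter, 690 splits and 949 merges were left, density differences were 0.960 and 0.945, and shared regions held 25.7% of the missing base pairs. With the WT list reduced to the number of KO regions, 57.0% of WT and 60.7% of KO regions and 47.5% of WT base pairs were shared, 49.9% of pairs were shorter and 45.7% longer, merges numbered 1148, splits 2012, so that both orders, longer over shorter and merges over splits, turned, the WT density difference was 0.833 and shared regions held 35.1% of the missing base pairs. With regions within 1 kb merged, 78.0% of KO regions and 45.6% of WT base pairs were shared, 44.7% of pairs were shorter and 51.2% longer, density differences were 0.956 and 1.27, and shared regions held 37.3% of the missing base pairs. Counting changes of at least 25% alone left 26.6% shorter and 33% longer. Without chromosomes 1, 6, 15, 17 and 19, 45.4% of WT base pairs were shared. The cause of these moves was not tested beyond what each alternative does by its construction. A minimum cover does not enter the share of WT base pairs listed in KO, so it was not run for that share, and the MLL4 comparison by length ratio could not be made with regions above the median of reads, where 2 pairs were left in the shortest class. The unknown depth of the libraries limits every count of regions.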
